A study of Homo sapiens with 12 samples.

Results

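A group of 10 RNAs made by RNA polymerase III, out of 61163 genes listed, was followed in nucleolar RNA (the NO fraction) and in cytoplasmic-nuclear RNA (the CN fraction) of human cells with and without hnRNP UL1. Its members were chosen by symbol, not by a measured value, though with earlier results of these data known. They are RN7SL1 and RN7SL2 (7SL RNA), RMRP (RNase MRP RNA), RPPH1 (RNase P RNA), RNY1, RNY3, RNY4 and RNY5 (Y RNAs), and VTRNA1-1 and VTRNA1-3 (vault RNAs). RNA of HEK WT cells, which are unedited HEK293T cells, was compared with RNA of the HEK UL1 KO cell line, in which the HNRNPUL1 gene was knocked out with CRISPR-Cas9. HEK293T is an established human embryonic kidney line that carries a viral large T antigen, and neither genotype received a treatment. There were 3 replicates of each genotype in each fraction, and 12 libraries in all. Whether the knockout line is a single clone is not given in the sources used here, and with 1 knockout line the effect of the deletion and the other differences between the 2 lines cannot be told apart. The labels do not say that replicates came from separate cultures, so the p-values measure the spread between these samples, which may be technical.

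RNA polymerase III makes short structured RNAs that work as the core of RNA-protein particles. 7SL RNA is the scaffold of the signal recognition particle, which brings ribosomes making secreted proteins to the endoplasmic reticulum, and part of its assembly takes place in the nucleolus. RMRP is the RNA of RNase MRP, a nucleolar enzyme that cuts the rRNA precursor, and RPPH1 is the RNA of RNase P, which removes the leader of tRNA precursors. Both enzymes share most of their proteins. Y RNAs are bound by Ro60 and La and are known for roles in RNA quality control and DNA replication, and vault RNAs are part of the vault, a large cytoplasmic particle.

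The sequences given here bear on which members can be told apart by short reads, and were taken from the GRCh38 genome at the RefSeq coordinates of each gene. RN7SL1 and RN7SL2 both lie on chromosome 14, RN7SL1 inside the span of RPS29 on the other strand. RMRP (chr9:35657750-35658019, minus strand, 270 bases) and RPPH1 (chr14:20343071-20343411, minus strand, 341 bases, first 300 shown) are given because they parted between the fractions, with capitals for their longest shared stretch, of 9 bases.
RMRP: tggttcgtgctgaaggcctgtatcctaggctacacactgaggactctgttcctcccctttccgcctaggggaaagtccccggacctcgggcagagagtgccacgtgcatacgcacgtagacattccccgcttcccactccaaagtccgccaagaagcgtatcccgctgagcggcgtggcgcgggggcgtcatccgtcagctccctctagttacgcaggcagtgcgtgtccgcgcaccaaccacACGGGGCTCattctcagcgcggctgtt
RPPH1: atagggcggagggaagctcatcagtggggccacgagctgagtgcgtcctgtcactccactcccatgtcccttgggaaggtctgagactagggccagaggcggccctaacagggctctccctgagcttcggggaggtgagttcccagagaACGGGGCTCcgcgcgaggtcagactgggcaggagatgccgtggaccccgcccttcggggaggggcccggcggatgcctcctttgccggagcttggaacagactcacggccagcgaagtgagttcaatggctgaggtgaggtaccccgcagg
The 4 Y RNA genes lie within 45761 bases of chromosome 7, RNY1 (chr7:148987136-148987248) on the minus strand and RNY3, RNY4 (chr7:148963315-148963410) and RNY5 (chr7:148941488-148941571) on the plus strand. RNY1, RNY4 and RNY5 are shown, and capitals mark the longest stretch shared by all 4 genes, of 8 bases near the 5′ end, in the stem that Ro60 is known to bind.
RNY1: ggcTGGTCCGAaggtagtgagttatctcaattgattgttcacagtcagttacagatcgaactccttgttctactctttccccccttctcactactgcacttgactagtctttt
RNY4: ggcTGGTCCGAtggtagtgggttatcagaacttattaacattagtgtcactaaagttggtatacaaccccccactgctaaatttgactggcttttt
RNY5: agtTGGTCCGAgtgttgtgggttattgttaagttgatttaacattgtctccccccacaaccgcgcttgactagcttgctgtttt
VTRNA1-1 (chr5:140711276-140711373) and VTRNA1-3 (chr5:140726159-140726246), both on the plus strand, share the 34 bases in capitals.
VTRNA1-1: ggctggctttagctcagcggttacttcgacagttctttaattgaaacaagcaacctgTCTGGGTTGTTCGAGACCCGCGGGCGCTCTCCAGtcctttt
VTRNA1-3: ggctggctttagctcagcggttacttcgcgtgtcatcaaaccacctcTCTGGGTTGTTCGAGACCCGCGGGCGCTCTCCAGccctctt
The strand of RNY5, which the GENCODE annotation does not name, was the one that matched the other Y RNAs. Among the Y RNAs, RNY1 and RNY3 were the most alike, with 73.3% identity over an alignment of 116 positions, and RNY1 and RNY5 the least, with 57.8%.

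These differences set what the counts can resolve. Reads had 75 bases, and 131 of the 225 windows of that length in RN7SL1 were found unchanged in RN7SL2, so the 2 rows cannot be fully told apart. A RefSeq lncRNA, LOC105378179, spans RN7SL2 and held 5 to 29 more counts than RN7SL2 in each library, and LOC107987206 held 0 to 5 more than RN7SL1. In GENCODE, lncRNA genes of the same strand also span RPPH1, RNY5, VTRNA1-1 and VTRNA1-3. What part of the counts of these members came from the lncRNAs was not tested. A further 684 entries with 7SL names, led by RN7SL5P and RN7SL3, carried 30.1 to 40.3% of the counts of the 7SL family. No window of 75 bases was shared between the Y RNAs tested (RNY1, RNY4 and RNY5 against RNY3, and RNY5 against RNY1) or between the vault RNAs. RNY3 has a near copy, RNY3P1, with 96.1% identity and 12 of 28 windows found, and its other entries, led by RNY3P6 and RNY3P1, carried 34.8 to 44.1% of the counts of the RNY3 family. Other entries carried 35.6 to 60.6% of the RNY4 family and at most 1.61% of the RNY1 family and 34.4% of the RNY5 family.

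The total count was 37141666 to 83019079 per library in NO and 54349399 to 104040073 in CN, of which 55.3 to 78.7% fell on rRNA genes. The 10 members took 0.0377 to 0.0662% of all counts. HNRNPUL1 itself had 551 to 697 counts in HEK WT and 152 to 453 in HEK UL1 KO in NO, which is -2.0 on the log2 scale (SE 0.323, adjusted p = 0.00649), and 1290 to 1495 against 288 to 360 in CN, or -1.83 (SE 0.0828, adjusted p = 2.12e-07). The HEK293T markers PAX2, LHX1, NEFM, CDH2 and CKB were counted in every library, with LHX1 lowest at 7 to 64 counts, and 4 of the 5 were called between the genotypes in CN, LHX1 (1.85 on the log2 scale) and PAX2 (0.76) higher and NEFM (-0.54) and CKB (-0.37) lower in HEK UL1 KO. Of 4 markers of other cell types, HBB had 0 to 7 counts, ALB 0 to 26, COL1A1 28 to 120 and PTPRC 5 to 178, and COL1A1 was called higher in CN of HEK UL1 KO (0.75 on the log2 scale). Whether these markers bear on the members was not tested.

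Levels are given as counts per 1000000 (CPM) of a library size corrected by TMM, a scaling that centres the fold changes of most genes. Within NO, the TMM factors of HEK WT were 0.690, 0.622 and 1.40 in replicates 1, 2 and 3, and those of HEK UL1 KO were 1.09 to 1.34. On this scale, HEK WT replicate 1 was the highest of its group for 10 of 10 members in NO and replicate 3 the lowest for 7, whereas without the factors replicate 2 was the lowest for 10. In CN, HEK WT replicate 3 had a factor of 0.761 against 1.01 and 1.04, and was the highest of its group for 10 of 10 members, or for 5 without the factors. Results that turn on these libraries are given with and without them.

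Levels of different genes were compared per length, as CPM per 100 bases on a scale set over all 12 libraries. These are levels of single rows. The counts on other entries of the 7SL, RNY3 and RNY4 families (30.1 to 40.3%, 34.8 to 44.1% and 35.6 to 60.6%) are left out. How reads with several alignments were counted is not given, so the order of rows may not be the order of the RNAs. In CN of HEK WT, RNY3 stood first with 227 ± 71.3 CPM per 100 bases (SD, n = 3), followed by RNY1 with 109 ± 43.6, RN7SL2 with 55.8 ± 20.8 and RN7SL1 with 55.5 ± 20.2. RNY5 (21.3 ± 6.60), RPPH1 (20.3 ± 6.22), RMRP (12.4 ± 1.52) and RNY4 (6.85 ± 1.99) came next, and the vault RNAs VTRNA1-3 (0.798 ± 0.252) and VTRNA1-1 (0.748 ± 0.198) last. The ranges of RNY1 and the 7SL RNAs overlapped, as did those of RNY5 and RPPH1 and of the vault RNAs, and the other neighbours in this order did not overlap. In NO of HEK WT, the first 5 were RNY3 (59.2 ± 33.0), RN7SL1 (57.1 ± 19.9), RN7SL2 (55.4 ± 17.3), RMRP (38.9 ± 9.78) and RNY1 (25.5 ± 12.9), each overlapping the next. RPPH1 followed at 3.43 ± 1.25, below all of them, then RNY5 (0.905 ± 0.437) and RNY4 (0.869 ± 0.562), which overlapped, and VTRNA1-3 (0.209 ± 0.0796) and VTRNA1-1 (0.0901 ± 0.0162). In HEK UL1 KO, RNY3 was again first in CN with 174 ± 29.0 and RNY1 came with 35.6 ± 11.2 behind both 7SL RNAs, whose ranges it overlapped. In NO of HEK UL1 KO, RN7SL2 (35.2 ± 8.63), RN7SL1 (35.1 ± 7.12) and RNY3 (31.9 ± 13.5) overlapped at the top.

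**Figure D1:**
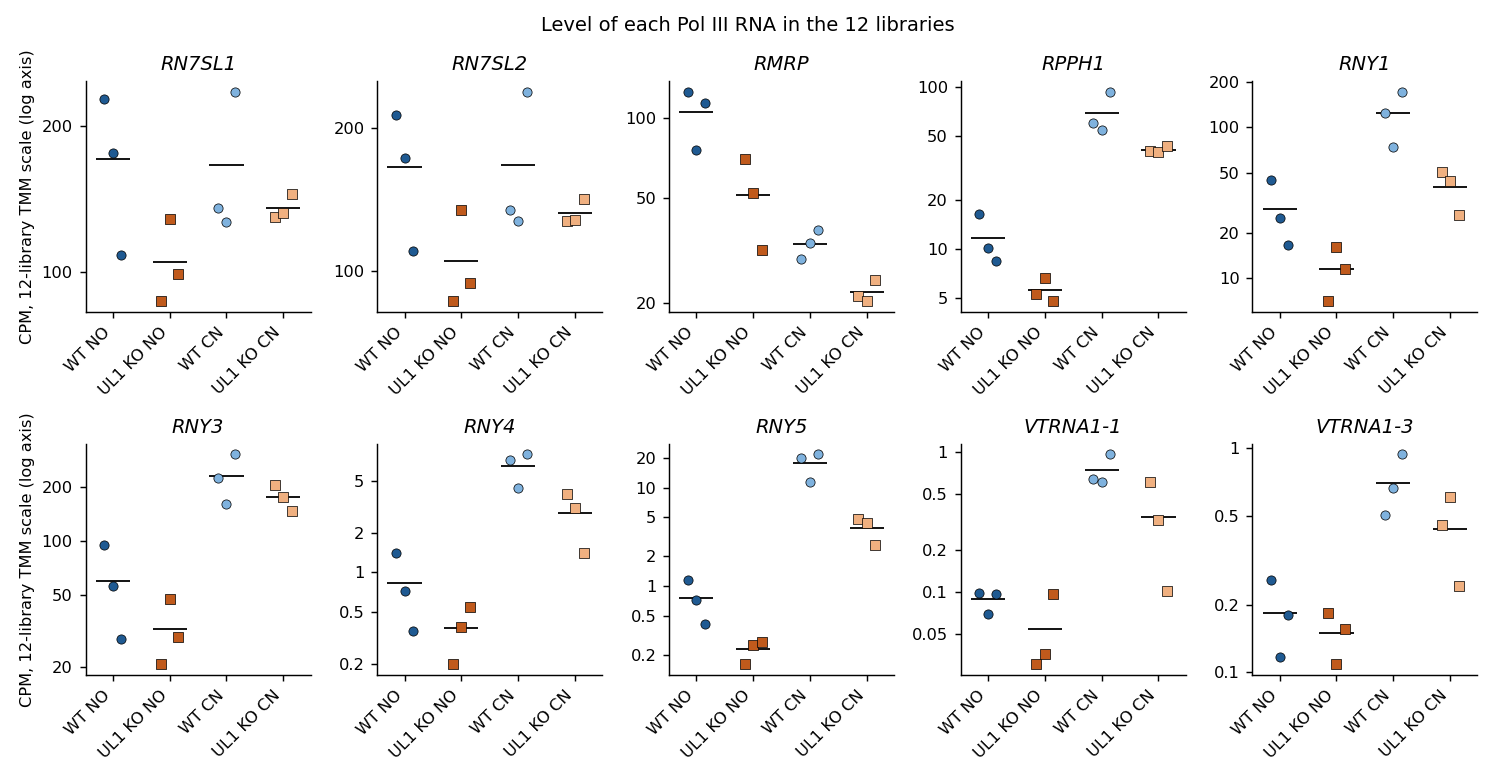
CPM of each of the 10 RNAs (vertical log axes, scaled over the 12 libraries) in NO and CN of HEK WT (circles) and HEK UL1 KO (squares), with 1 point per library and the mean of 3 as a line. RMRP is higher in NO than in CN, the Y and vault RNAs and RPPH1 are lower in NO, and the 7SL RNAs overlap between the fractions in HEK WT.

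The comparison of NO with CN shows how each RNA differed between the fractions relative to most other genes, on the TMM scale. RMRP was the only member called higher in NO of HEK WT, 1 of 10 where 31.9% of all genes tested were called higher. In all, 7 of 10 were called lower in NO, where 20.9% of all genes were: RPPH1, the 4 Y RNAs and both vault RNAs. Both 7SL RNAs were neither. The median of the 10 members was -1.78 on the log2 scale, beside 0.02 over all genes tested. With total counts in place of TMM, 6387 genes were called higher and 624 lower in NO, against 9355 and 6139 with TMM, and the direction of all 10 members was kept.

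RMRP, the RNA of the pre-rRNA cutting enzyme, measured 46.7, 28 and 42.2 CPM per 100 bases in NO of HEK WT replicates 1, 2 and 3, and 10.9, 12.4 and 13.9 in CN. All NO libraries lay above all CN libraries, with a log2 fold change of 1.93 (SE 0.254, adjusted p = 0.00251 with edgeR's quasi-likelihood test), or 3.82-fold. In HEK UL1 KO, RMRP measured 25.9, 19.3 and 11.7 in NO and 7.84, 7.49 and 9.0 in CN, or 1.21 higher on the log2 scale (SE 0.248, adjusted p = 0.00115). RPPH1, its tRNA processing counterpart, went the other way, with 4.84, 2.98 and 2.47 CPM per 100 bases in NO and 17.6, 15.9 and 27.4 in CN of HEK WT. Its log2 fold change was -2.31 (SE 0.290, adjusted p = 0.00195) in HEK WT and -2.89 (SE 0.189, adjusted p = 7.17e-06) in HEK UL1 KO.

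Because both RNAs were counted in the same library, their ratio needs no scaling between libraries. RMRP had 7.65, 7.43 and 13.5 counts for each count of RPPH1 in NO of HEK WT, and 0.491, 0.621 and 0.403 in CN. In HEK UL1 KO, the ratios were 13.1, 7.89 and 6.62 in NO and 0.528, 0.509 and 0.565 in CN. The lowest NO library lay above the highest CN library in both genotypes, and the mean ratios were 9.53 ± 3.45 in NO and 0.505 ± 0.11 in CN of HEK WT (SD, n = 3). The ratio was 18.4-fold higher in NO of HEK WT and 16.5-fold higher in NO of HEK UL1 KO, each with p = 0.1 in an exact two-sided permutation test, the smallest that 3 libraries against 3 can give. After adjustment over 8 ratios, that p was 0.16 in each genotype. A test with both genotypes as strata was added after the values had been seen, here and below. It gave p = 0.005 (exact two-sided permutation test, the smallest it can give, 0.0133 after adjustment over 8 ratios). Between genotypes, the ratio was 1.04-fold lower in HEK UL1 KO in NO and 1.07-fold higher in CN, within the spread of the replicates (p = 0.905 over both fractions, exact permutation test).

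The Y RNAs were lower in NO in both genotypes. RNY5, the shortest of them at 84 bases, measured 1.36, 0.861 and 0.492 CPM per 100 bases in NO of HEK WT and 24.0, 13.8 and 26.1 in CN. It had the largest difference of the members between the fractions, with a log2 fold change of -4.32 (SE 0.359, adjusted p = 0.000168), and -4.23 (SE 0.304, adjusted p = 1.29e-05) in HEK UL1 KO. RNY4 followed with -2.75 in HEK WT and -3.09 in HEK UL1 KO, RNY1 with -1.85 and -1.81, and RNY3 with -1.70 and -2.45, all called. The share of RNY5 among all Y RNA counts, a measure free of scaling, was 0.799, 0.871 and 0.897% in NO of HEK WT and 5.32, 4.61 and 4.31% in CN. Over both genotypes, the share of RNY5 was 4.24-fold lower in NO and that of RNY4 1.69-fold lower (p = 0.005 and 0.015, adjusted 0.0133 and 0.024, exact permutation test with genotype as strata). The share of RNY3 was 65.8 ± 3.14% in NO and 61.4 ± 2.41% in CN of HEK WT, which overlapped, and 72.7 ± 2.09% and 79.4 ± 3.17% in HEK UL1 KO, where every NO library lay below every CN library (p = 0.755 over both genotypes, exact permutation test).

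RN7SL1 and RN7SL2 were not called between the fractions by edgeR in either genotype. Their copies RN7SL3, RN7SL4P and RN7SL5P were looked at after the values were seen. In HEK UL1 KO, edgeR called them lower in NO, at -0.64, -0.94 and -0.82 (adjusted p = 0.00464, 0.00166 and 0.00204). In HEK WT the copies were at 0.43, 0.03 and 0.27, none called. RN7SL1 measured 76.1, 58.7 and 36.3 CPM per 100 bases in NO of HEK WT and 45.4, 42.4 and 78.7 in CN, a log2 difference of 0.29 (SE 0.311, adjusted p = 0.460). The interval of this difference, at about 95%, ran from -0.32 to 0.90. In HEK UL1 KO the values were -0.38 (SE 0.213, adjusted p = 0.123) for RN7SL1 and -0.34 (SE 0.224, adjusted p = 0.183) for RN7SL2, and without HEK UL1 KO replicate 2 of NO, both were called lower at -0.52 and -0.53. RN7SL1 was also called lower in HEK UL1 KO by DESeq2 (-0.43, adjusted p = 0.0361) and with no filter on low counts (-0.55, adjusted p = 0.0370). In HEK WT, without NO replicate 1, RN7SL1 was at -0.03. Set against the Y RNAs of the same library, 7SL RNA was 4.27-fold more abundant in NO (p = 0.005, adjusted 0.0133, exact permutation test with genotype as strata), with 4.01 ± 0.854 counts for each Y RNA count in NO of HEK WT against 0.886 ± 0.155 in CN. RN7SL1 and RN7SL2 kept a ratio of 0.955 to 1.07 in the 12 libraries, as 2 rows that may share reads.

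Vault RNAs were close to the limit of detection in NO. VTRNA1-1, known for binding the autophagy receptor p62, had 5, 3 and 7 counts in NO of HEK WT and 42, 40 and 57 in CN. VTRNA1-3 had 13, 5 and 13 counts in NO and 33, 44 and 56 in CN of HEK WT. Both were called lower in NO of HEK WT, with log2 fold changes of -2.72 (SE 0.434, adjusted p = 0.00387) and -1.63 (SE 0.439, adjusted p = 0.0124), the latter lost with total counts in place of TMM (-1.23, adjusted p = 0.128). In HEK UL1 KO, VTRNA1-1 did not pass the filter on low counts, and VTRNA1-3 was at -1.53 (SE 0.373, adjusted p = 0.00316), a call that was also lost with total counts (-0.74, adjusted p = 0.118). There, 6 of the 9 members tested were called lower in NO, where 35.6% of all genes were, and RMRP was again the 1 called higher, where 40.7% were. The median of those 9 was -1.81, beside 0.03 over all genes. With total counts, 18451 genes were called higher and 838 lower in NO of HEK UL1 KO, against 14023 and 12264 with TMM, the median of all genes was 0.79, and the 7SL RNAs were above 0 at 0.34 and 0.38.

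**Figure D2:**
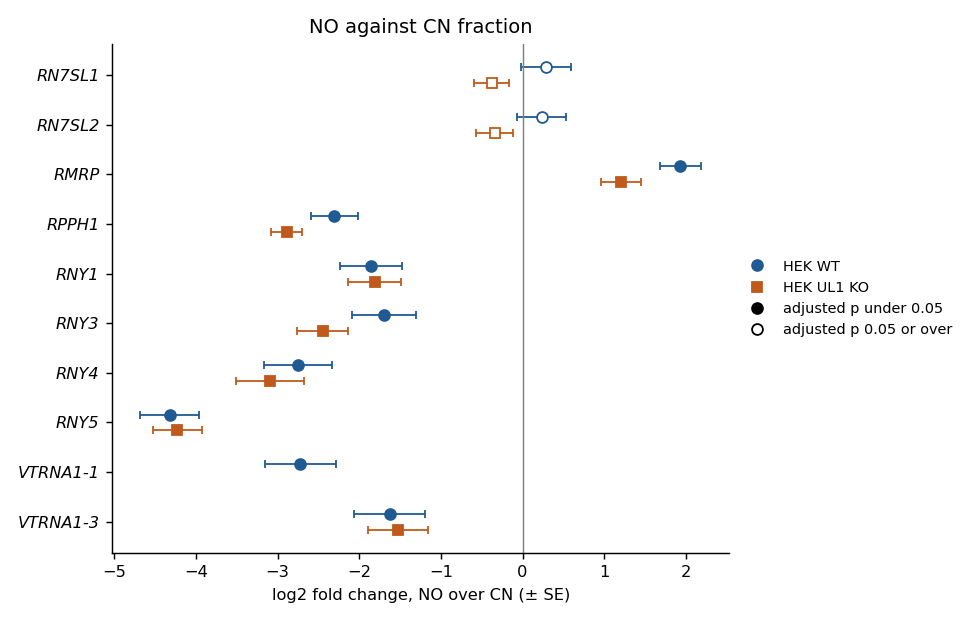
Log2 fold change of NO over CN (horizontal axis, bars are ± SE of the edgeR fit) for each RNA in HEK WT (circles) and HEK UL1 KO (squares), filled where the adjusted p was under 0.05. RMRP lies right of 0 in both genotypes at 1.93 and 1.21, RNY5 lies farthest left at -4.32 and -4.23, and the 7SL RNAs lie near 0. VTRNA1-1 was not tested in HEK UL1 KO.

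The comparison of HEK UL1 KO with HEK WT asked whether the RNAs changed when hnRNP UL1 was lost. In CN, 5 of the 10 members were called lower and 0 higher, where 22.3% of all genes tested were called lower: RNY5, RNY1, RNY4, RPPH1 and RMRP. The other 5 did not pass the test, and their values were below 0 with TMM, whereas RN7SL1 and RN7SL2 were at 0.06 and 0.02 with total counts. The median log2 fold change of the 10 members was -0.62, beside 0.04 over all genes tested. With total counts, 3 members stayed called, and over all genes 3700 were called higher and 1730 lower, against 4254 and 6070 with TMM. In 5 of the 10 members, every HEK UL1 KO library lay below every HEK WT library, where that held for 28.1% of all genes, and these were the same 5 as those called. Without the TMM factors, RMRP overlapped between the genotypes. In bulk RNA, fewer cells with an RNA and less of it per cell cannot be told apart.

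RNY5 differed most in CN. It measured 15.8, 9.13 and 16.5 CPM in HEK WT and 3.89, 3.59 and 2.16 in HEK UL1 KO, with no overlap. Its log2 fold change was -2.09 (SE 0.241, adjusted p = 8.75e-05), or 4.26-fold lower, and -1.89 without HEK WT replicate 3. RNY1, which Ro60 also binds, measured 97.5, 58.3 and 130 CPM in HEK WT and 41.4, 35.7 and 21.8 in HEK UL1 KO, or 2.89-fold lower (log2 fold change -1.53, SE 0.277, adjusted p = 0.00155). RNY4 measured 5.71, 3.48 and 6.04 CPM against 3.25, 2.54 and 1.16, all 3 below the HEK WT libraries, with a log2 fold change of -1.11 (SE 0.300, adjusted p = 0.0142). DESeq2 did not call RNY4 (-1.12, adjusted p = 0.0642). RNY3, the most abundant Y RNA, measured 178, 127 and 231 CPM against 169, 144 and 123, which overlapped, and its log2 fold change of -0.30 (SE 0.189, adjusted p = 0.238) became -0.02 without HEK WT replicate 3 and -0.49 without HEK WT replicate 2, where it was called (adjusted p = 0.0347).

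RPPH1 measured 46.8, 42.7 and 70.3 CPM in CN of HEK WT and 32.7, 32.3 and 35.8 in HEK UL1 KO. RMRP measured 23.0, 26.5 and 28.3 CPM against 17.3, 16.5 and 20.2. Neither overlapped between the genotypes on this scale, and their log2 fold changes were -0.66 (SE 0.157, adjusted p = 0.00714) and -0.53 (SE 0.10, adjusted p = 0.00205). Without the TMM factors RMRP did overlap, at 21.5 to 27.7 CPM in HEK WT and 17.7 to 22.0 in HEK UL1 KO. Without HEK WT replicate 3, RPPH1 was at -0.37 and still called. Both calls were lost with total counts in place of TMM, at -0.42 (adjusted p = 0.0506) and -0.31 (adjusted p = 0.151), where the median of all genes was 0.24. The 7SL RNAs overlapped between the genotypes: RN7SL1 measured 106, 100 and 177 CPM in HEK WT and 106, 108 and 120 in HEK UL1 KO, with a log2 fold change of -0.20 (SE 0.184, adjusted p = 0.419), and 0.16 without HEK WT replicate 3, the library at 177 CPM. RN7SL2 was at -0.24 (SE 0.188, adjusted p = 0.335). VTRNA1-1 had 42, 40 and 57 counts in HEK WT and 36, 20 and 5 in HEK UL1 KO, with a log2 fold change of -0.96 (SE 0.434, adjusted p = 0.103). VTRNA1-1 was called without HEK UL1 KO replicate 1 (-1.64, adjusted p = 0.0224) and with no filter (-0.99, adjusted p = 0.00504). VTRNA1-3 was at -0.58 (SE 0.338, adjusted p = 0.198).

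In NO, 0 of the 9 members tested were called, where 0.939% of all genes were called in either direction. All 9 had negative log2 fold changes with TMM (6 of 9 when scaled to U3, where RN7SL1, RN7SL2 and VTRNA1-3 were above 0), with a median of -1.10 beside 0.00403 over all genes, 6 had an unadjusted p under 0.05, where 16.0% of all genes had, and DESeq2 called 4 (RMRP, RPPH1, RNY1 and RNY5), where it called 2.40% of all genes lower. In 3 of the 9 members (RMRP, RPPH1 and RNY5), every HEK UL1 KO library lay below every HEK WT library, where that held for 9.17% of all genes tested. Without the TMM factors, RMRP overlapped, at 62.2 to 194 CPM in HEK WT and 43.8 to 110 in HEK UL1 KO. RPPH1 then overlapped too, at 8.36 to 14.8 against 6.62 to 9.35. RNY5 stayed apart, at 0.596 to 1.03 against 0.253 to 0.377. Without HEK WT replicate 3, 8 members were called lower, where 15.3% of all genes were, and the exception among the 9 tested was VTRNA1-3. VTRNA1-1, with 2 to 7 counts in NO, did not pass the filter.

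RNY5 again had the largest difference in NO, with 1.49, 0.958 and 0.505 CPM in HEK WT and 0.189, 0.329 and 0.328 in HEK UL1 KO. Its log2 fold change was -1.84 (SE 0.436, adjusted p = 0.0521), and it rested on 14 to 58 counts per library. RMRP measured 164, 99.9 and 139 CPM against 82.4, 67.9 and 38.1, a log2 fold change of -1.10 (SE 0.391, adjusted p = 0.183). RPPH1 was at -1.13 (SE 0.319, adjusted p = 0.102), with 21.4, 13.4 and 10.3 CPM in HEK WT and 6.30, 8.60 and 5.76 in HEK UL1 KO. For RNY1 the HEK UL1 KO values of 8.24, 21.0 and 13.9 CPM overlapped those of HEK WT at 58.4, 33.0 and 20.3, where replicate 3 was the lowest, and its log2 fold change was -1.38 (SE 0.408, adjusted p = 0.116). RNY4 (-1.27), RNY3 (-0.95), RN7SL1 (-0.76), RN7SL2 (-0.71) and VTRNA1-3 (-0.34) followed with adjusted p values from 0.209 to 0.734. The level of these values depended on the scaling: with total counts, RNY5 was at -1.25, RMRP at -0.70 and RN7SL1 at -0.23, where the median of all genes was 0.40, and scaled to the U3 gene SNORD3A, they were at -1.0, -0.32 and 0.07, where it was 0.83.

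The difference between the genotype effects in NO and CN was not detectable for any member. In the interaction of genotype and fraction, 0 of 10 members were called by edgeR or DESeq2 and 0 had an unadjusted p under 0.05, where 0.114% of all genes were called. The interaction was -0.42 (SE 0.379) on the log2 scale for RMRP, with an interval at about 95% from -1.17 to 0.32, and 0.40 (SE 0.527) for RNY5, from -0.63 to 1.44. The adjusted p was 0.999986 for each of the 10.

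**Figure D3:**
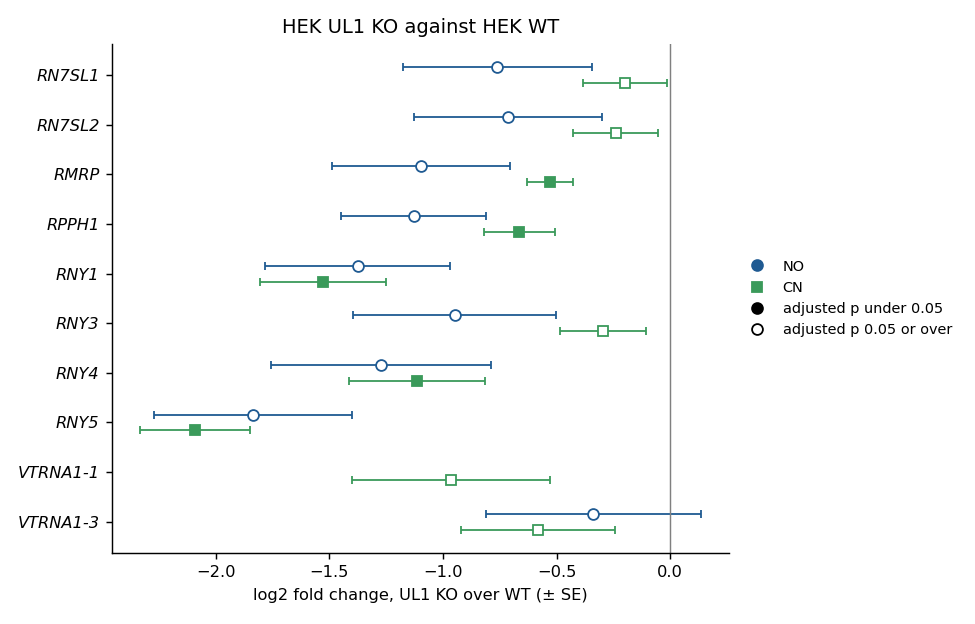
Log2 fold change of HEK UL1 KO over HEK WT (horizontal axis, bars are ± SE of the edgeR fit) for each RNA in NO (circles) and CN (squares), filled where the adjusted p was under 0.05. With TMM scaling all points lie left of 0 (scaled to U3, RN7SL1, RN7SL2 and VTRNA1-3 would lie right of it in NO, and with total counts VTRNA1-3 in NO and both 7SL RNAs in CN), RNY5 is farthest left in both fractions at -1.84 and -2.09, and filled points are found in CN. VTRNA1-1 was not tested in NO.

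The make-up of the Y RNAs, which needs no scaling between libraries, was compared inside each library. In CN, RNY3 was 59.9, 64.2 and 60.2% of the Y RNA counts in HEK WT and 77.7, 77.4 and 83.1% in HEK UL1 KO. RNY1 was 32.9, 29.4 and 33.9% in HEK WT and 19.0, 19.2 and 14.7% in HEK UL1 KO, and RNY5 went from 5.32, 4.61 and 4.31% to 1.79, 1.94 and 1.46%. For all 3 RNAs the genotypes did not overlap. In NO, where they did not overlap either, the share of RNY3 was 65.8 ± 3.14% in HEK WT and 72.7 ± 2.09% in HEK UL1 KO, that of RNY1 32.5 ± 3.19% and 25.9 ± 1.60%, and that of RNY5 0.855 ± 0.0507% and 0.540 ± 0.134% (SD, n = 3). Within a fraction, each of these 6 differences had p = 0.1, the smallest of the exact permutation test, and an adjusted p of 0.16 in CN and 0.267 in NO. A test with both fractions as strata was added after the values had been seen. The share of RNY3 was 1.20-fold higher, that of RNY1 1.51-fold lower and that of RNY5 2.11-fold lower in HEK UL1 KO (p = 0.005 each, adjusted p = 0.0133, exact permutation test). The share of RNY4 was 1.26-fold lower (p = 0.21, exact permutation test). This test takes NO and CN libraries as independent, and the labels do not say whether both fractions came from the same cells. The shares of a library add up to the whole, so a higher share of RNY3 and a lower share of RNY1 are not separate results. RNY3 itself was not higher in HEK UL1 KO, with log2 fold changes of -0.30 in CN and -0.95 in NO. RNY1 has 113 bases, RNY3 102, RNY4 96 and RNY5 84.

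**Figure D4:**
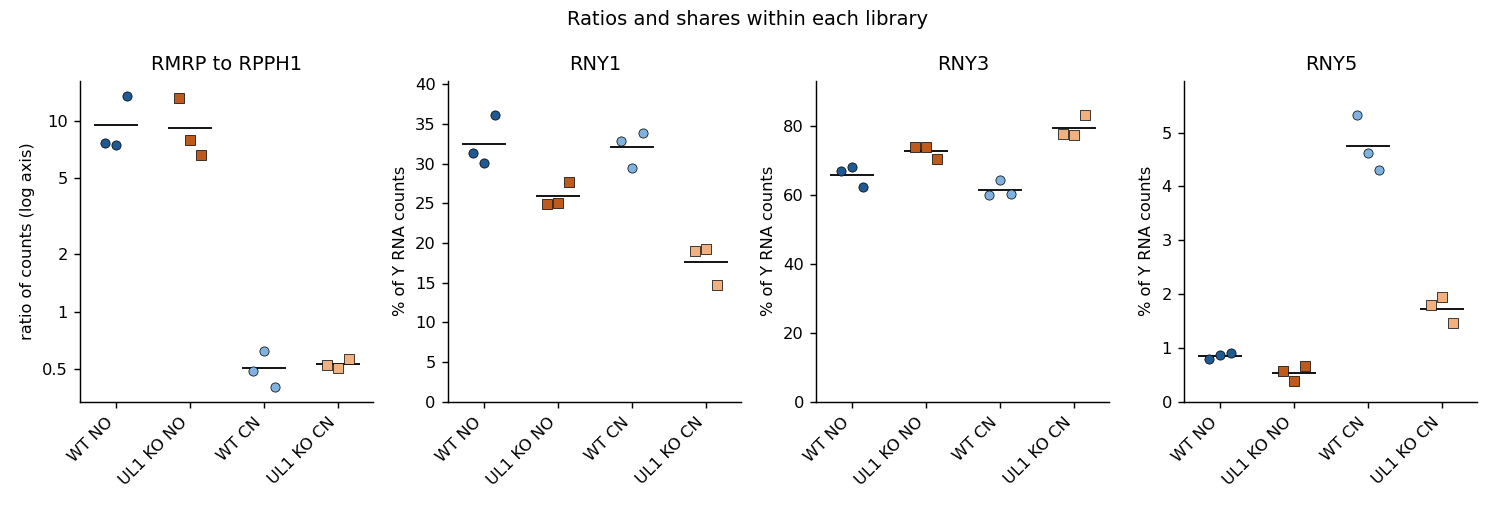
Measures taken inside each library, 1 point per library and the mean of 3 as a line: the ratio of RMRP to RPPH1 counts (log axis), and the shares of RNY1, RNY3 and RNY5 in the counts of the 4 Y RNAs (percent, from 0). The RMRP to RPPH1 ratio is between 6.62 and 13.5 in NO and between 0.403 and 0.621 in CN, and in both fractions HEK UL1 KO lies below HEK WT for RNY1 and RNY5 and above it for RNY3.

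Other short genes were also lower in HEK UL1 KO, and a limit of 350 bases, just over the longest member, was set after the values had been seen. Of 893 other genes up to this RefSeq length tested in CN, 400 (44.8%) were called lower and 18 higher, with a median log2 fold change of -0.70, against 22.8% called lower and a median of 0.03 for 22668 longer genes. In NO, 68 of 864 short genes (7.87%) were called lower and 0 higher, with a median of -0.81. The 5 of 10 members called lower in CN, with a median of -0.62, thus stood close to the short genes as a group. A length was found for 86.5% of the genes tested in CN and 85.6% in NO, and the part of transcript length in the members' values was not tested.

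Other RNA polymerase III products of a fixed list of 11 were compared next. In CN, 5 of the 10 tested were called lower and 0 higher, with a median of -0.74, where 22.3% of all genes were called lower. Among genes up to 350 bases other than the members, 44.8% were called lower, with a median of -0.70. The list thus stood close to the short genes as a group, and the part of transcript length in its values was not tested. The RNAs called were RNU6ATAC, the U6atac RNA of the minor spliceosome, at -1.05 (SE 0.185, adjusted p = 0.00133), and the U6 genes RNU6-7 (-1.32), RNU6-1 (-0.93), RNU6-9 (-0.83) and RNU6-2 (-0.72). These U6 genes are near-identical copies and may share reads, so their calls may not be separate results. RN7SK, the RNA that holds the elongation factor P-TEFb inactive, was at 0.29 (SE 0.129, adjusted p = 0.0943), RN7SL3 at 0.09, BCYRN1 at -0.38, VTRNA1-2 at -0.54 and RNU6-8 at -0.76, none called. In NO, 0 of 9 were called by edgeR and 1 by DESeq2, 3 had an unadjusted p under 0.05, 5 were called without HEK WT replicate 3, where 25.1% of all genes were, and the values ran from -1.36 for RNU6-8 to -0.34 for RN7SK. VTRNA2-1 had 0 to 2 counts per library and was not tested. Copies of the members, looked at after their values were seen, differed among themselves: in CN, RNY3P1 was at -1.67 (SE 0.254, adjusted p = 0.000529), RNY3P6 at -0.18 (adjusted p = 0.642) and RN7SL5P at 0.14 (adjusted p = 0.592).

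The mRNAs of the proteins that bind these RNAs were counted by list, beside the 22.3% of all genes called lower and 15.6% called higher in CN. Of 12 proteins of RNase P and MRP, 4 were called lower and 1 higher in CN: RPP40 (-0.91, SE 0.164), NEPRO (-0.89, SE 0.0925), RPP30 (-0.41) and RPP14 (-0.38) lower, and RPP25 (1.00, SE 0.186) higher. Of 8 proteins of the signal recognition particle and its receptor, SRP9 (-0.84, SE 0.0917), SRPRB (-0.43) and SRP72 (-0.29) were lower and SRP14 (0.43), the partner of SRP9 on the Alu domain of 7SL, was higher. Of 9 proteins known to bind Y RNA, 6 were lower, with HNRNPK (-0.69, SE 0.0784), RO60 (-0.68, SE 0.0902) and PARN (-0.39) the largest falls, and PUF60 (0.61, SE 0.123) was higher. RO60, which encodes the Ro60 protein, had 2762 to 3286 counts in HEK WT and 1194 to 1866 in HEK UL1 KO in CN. Of 3 vault proteins, PARP4 (0.26) was higher and MVP and TEP1 were not called. Of 10 factors of gene-external polymerase III promoters, 9 were tested, BDP1 (-0.75, SE 0.0694), POU2F1 (-0.50), SNAPC3 (-0.45) and TBP (-0.27) were lower, SNAPC5 (0.94, SE 0.135) was higher, and SNAPC2 had too few counts to be tested. The medians in CN were -0.32 for RNase P and MRP, -0.21 for the signal recognition particle, -0.29 for Y RNA binding, 0.26 for the vault and -0.24 for the promoter factors, beside 0.04 for all genes. With total counts, the genes called in CN came to 2 for the signal recognition particle, 3 for RNase P and MRP, 2 for Y RNA binding, 1 for the vault and 2 for the promoter factors, and with all 12 libraries in one fit to 0, 3, 0, 0 and 2. Over all genes in CN, 1790 were called higher and 2425 lower of 37806 in that fit. With total counts, 3700 and 1730 of 27234 were. In NO, 0 genes of these 5 lists were called by edgeR or DESeq2, 8 of the 41 tested had an unadjusted p under 0.05, where 16.0% of all genes had, and 20 were called without HEK WT replicate 3, where 25.1% of all genes were called in either direction.

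The genes whose profile over the 12 libraries was most like that of each class were found among 15246 genes, by the root mean square difference of centred log2 CPM. For 7SL RNA they were LOC107987206 and LOC105378179, at 0.0207 and 0.0209, whose counts were within 29 of those of RN7SL1 and RN7SL2, and then FLNA at 0.146. For the Y RNAs they were KLHL13 (0.238), RNY3P6 (0.279) and TRE-CTC1-2 (0.447), a tRNA gene. Taken singly, RNY5 was most like RNY3P1 (0.334), and RMRP most like SNHG7 (0.247), a host gene of snoRNAs. The RefSeq span of KLHL13 held 21 of the 53 windows of 50 bases of RNY3 and 0 of the 28 windows of 75 bases, and what part of its count came from there was not tested. RNase P and MRP RNA had LINC01234 (0.281), SMTN (0.290) and ANKRD20A4-ANKRD20A20P (0.299), and the vault RNAs had ZMAT3 (0.192), ST7 (0.200) and HIBADH (0.206), which tracked them at few counts. The members together were 0.0580 ± 0.0133% of all counts in NO and 0.0570 ± 0.00754% in CN of HEK WT, and 0.0453 ± 0.00857% and 0.0491 ± 0.00162% in HEK UL1 KO (SD, n = 3). The exact permutation tests with strata gave p = 0.655 between fractions and p = 0.095 between genotypes. Of the counts outside rRNA genes, they were 0.148 ± 0.0388% in NO and 0.239 ± 0.0567% in CN of HEK WT, and 0.118 ± 0.0318% and 0.192 ± 0.00548% in HEK UL1 KO, and every NO library lay below every CN library of its genotype. That share was 1.65-fold lower in NO over both genotypes (p = 0.005, exact permutation test with strata, the smallest it can give).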

How the data were processed

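Total RNA of RIN above 8, with no removal of rRNA, was made into libraries with the CORALL total RNA-seq kit and sequenced as single reads of 75 bases. The authors deposited raw counts per gene, 1 table per fraction, made with Cutadapt 3.7, STAR 2.7.8 on GRCh38 with up to 20 alignments kept per read, and featureCounts. How reads with several alignments were counted, the strand setting and the annotation release are not given in the sources used here, so a read of near-identical copies may be split, repeated or lost.

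Genes were tested with edgeR 4.0.16 in R 4.3.3 (quasi-likelihood test, filterByExpr, TMM, Benjamini-Hochberg over all genes tested, called under an adjusted p of 0.05), on the 6 libraries of each comparison, or all 12 for the interaction. Intervals at about 95% are the estimate with 1.96 SE on either side. All 10 members are named, with the called genes of each list (3 rises and 3 falls where over 6 were called) and the 3 genes most like each class. Ratios were tested by exact permutation of libraries, and shares of RNA families were computed from raw counts. The tests with strata were added after the values had been seen. They permuted each stratum separately, which takes NO and CN libraries as independent. If both fractions of a replicate came from the same cells, these p-values may be too small. Identity is over global alignments. The members and lists were chosen with earlier results of these data known. The alternatives tried were DESeq2 1.42.0, total counts, TMM without rRNA genes, a reference gene, other filters, a replicate block, a fit of all libraries and leaving out each library. In data simulated for CN, edgeR recovered 200 of 200 genes changed 4-fold among 27234, and in those for NO 194 of 200 among 34836. Beside these, edgeR made 15 false calls in CN and 21 in NO. DESeq2 recovered 200 and 195, with 22 false calls in CN and 41 in NO. The changed genes were drawn only from those with higher mean counts than RNY4, RNY5 and the vault RNAs had in NO. The recovery does not cover these members there, or changes under 4-fold. Same-numbered libraries did not deviate together, with correlations from -0.545 to -0.0444. Promoter and protein sequences were not used here. The sequences of RN7SL1, RN7SL2 and RNY3 are not reported here.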

Additional observations from a re-analysis of the deposited data

How the results depend on the processing

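In NO, the 0 members and 0 classes called between the genotypes came to 4 and 1 with DESeq2, to 3 and 1 with all 12 libraries in one fit, to 6 and 2 at an unadjusted p under 0.05, to 4 members with no filter, and to 0 to 8 members and 0 to 2 classes on leaving out 1 library, where 8 and 2 came without HEK WT replicate 3. Over all genes in NO, 313 were called higher and 877 lower of 58785 with no filter. With all 12 libraries in one fit, 613 and 1132 of 37806 were. In CN, the 5 members and 2 classes (RNase P and MRP, and Y RNA) came to 3 and 0 with total counts, 2 and 0 with all 12 libraries in one fit and 9 and 4 with GAPDH as reference, whereas the classes came to 1 with DESeq2, 1 with the replicate block and 1 to 2 on leaving out 1 library. Over all genes in CN, 1092 were called higher and 9068 lower of 27234 with GAPDH as reference. With all 12 libraries in one fit, 1790 and 2425 of 37806 were. Between fractions, the 2 classes called in either genotype came to 1 with at least 10 counts in every library, where the vault RNAs were filtered out.

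No direction turned for a member in a comparison where it was called with TMM. Scaled to U3, NO gave 0.072 for RN7SL1, 0.11 for RN7SL2, 0.090 for 7SL, 0.46 for VTRNA1-3 and 0.34 for vault RNA (log2). Total counts gave 0.095 for VTRNA1-3 in NO and 0.058, 0.016 and 0.037 for RN7SL1, RN7SL2 and 7SL in CN, and, for NO against CN in HEK UL1 KO, 0.34, 0.38 and 0.36 for these and 0.60 for RNase P and MRP. With at least 10 counts in every library, the last 4 were 0.047, 0.086, 0.066 and 0.28, and all 12 libraries in one fit gave -0.012 for RN7SL2 in HEK WT. Leaving out 1 library gave -0.35 to 0.16, -0.40 to 0.13 and -0.38 to 0.14 for RN7SL1, RN7SL2 and 7SL in CN, and -0.028 to 0.55, -0.039 to 0.51 and -0.034 to 0.53 for NO against CN in HEK WT. For the interaction, RNY4 was 0.029 with DESeq2, 0.22 with total counts, 0.037 with at least 10 counts, 0.13 with the replicate block and -0.47 to 0.64 on leaving out 1 library, which gave -0.61 to 0.017 for RPPH1, -0.036 to 0.76 for RNY1, -0.36 to 0.86 for VTRNA1-1 and -0.62 to 0.22 for Y RNA. Leaving out 1 library gave, for RMRP to RPPH1 between genotypes, -0.34 to 0.22 in NO and -0.048 to 0.26 in CN, for RN7SL1 to RN7SL2 -0.058 to 0.011 in NO and -0.061 to 0.0079 between fractions in HEK UL1 KO, for the share of RNY4 in NO -0.44 to 0.14, for that of RNY1 between fractions in HEK WT -0.061 to 0.072, and for the members' share of all counts there -0.10 to 0.21. Over both strata, tested after the data were seen, these were 0.023 for RMRP to RPPH1, 0.0079 and 0.0048 for RN7SL1 to RN7SL2, -0.064 for the share of all counts, and 0.26 (genotype) and -0.015 (fraction) for the share of RNY3. The cause was not tested.

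Whether the replicate numbers pair the libraries is not given by the labels, and the main tests used no pairing. The replicate block is given only in this section. With edgeR it ended the calls of Y RNA in CN (adjusted p = 0.071) and of VTRNA1-3 in HEK WT (adjusted p = 0.0516). Counts of 2 to 7 limit VTRNA1-1 in NO, and near-identical copies limit the 7SL RNAs and RNY3. The rows of RPPH1, RNY5 and the vault RNAs may also hold reads of the lncRNA genes that span them.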
